A study of Mus musculus with 7 samples.

Results

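Red blood cell genes were followed in RNA from the carotid artery of mice. The members were Alas2, Slc4a1, Hba-a1, Hbb-b1, Epb42 and Ahsp, and they were taken as all probe sets whose symbol field in the array annotation lists one of these genes. The rule found 11 of the 45101 probe sets, for 5 of the 6 genes. Alas2 had 1 probe set, Slc4a1 had 3, Hba-a1 had 4, Hbb-b1 had 1 and Epb42 had 2. Ahsp is not analysed here. The signals of 7 member probe sets were high enough to be tested.

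Each array measured one sample of offspring that were ApoE-/+, with 1 null and 1 wild-type allele of the gene for apolipoprotein E. In the wild-type mother group (n = 3) a normocholesterolemic wt mother had been crossed with an ApoE-/- father. In the ApoE-null mother group (n = 4) a hypercholesterolemic ApoE-/- mother had been crossed with a wt father. Both groups thus carried the same Apoe genotype, and each had 1 parent without ApoE, so effects of mother and father cannot be told apart. The study asked whether the parent with high cholesterol matters for atherosclerosis in the offspring. The labels give a cholesterol state for the mothers only. Strain, diet, age, sex and litter of the samples are not stated in the labels, nor is any flushing of the vessel before it was frozen. It is also not stated that the arrays came from separate animals, so the p-values measure the spread between these samples, which may be technical. Arrays are named by group and number, as in wild-type mother 2.

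Red cells are made from nucleated erythroblasts, which fill up with globin messenger RNA, lose the nucleus and enter the blood as reticulocytes that still hold RNA. Haemoglobin joins alpha and beta globin chains with haem. Alas2 encodes the erythroid form of the first enzyme of haem synthesis, Slc4a1 the anion exchanger band 3 of the red cell membrane, and Epb42 a protein that ties band 3 to the membrane skeleton. In a vessel such RNA can come from blood left in the lumen or in the surrounding tissue.

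The globin and Alas2 signals rose and fell together over most arrays, as described below. Upstream sequences of these genes are shown as a description, and their bearing on that pattern was not tested. Each is the 250 bases before the annotated start, 5′ to 3′ on the strand of the gene, from RefSeq on GRCm38.p6. Capitals mark matches on either strand to the GATA motif (AGATAA or AGATAG or TGATAA or TGATAG) or to the CACCC motif (CCACCC or CCACACCC), the letters known for binding GATA1 and KLF1. The 4 stretches lie at chrX:150547167-150547416 (Alas2, plus strand), chr11:32283422-32283671 (Hba-a1, plus strand), chr7:103827929-103828178 (Hbb-bs, minus strand) and chr7:103813924-103814173 (Hbb-bt, minus strand).
Alas2: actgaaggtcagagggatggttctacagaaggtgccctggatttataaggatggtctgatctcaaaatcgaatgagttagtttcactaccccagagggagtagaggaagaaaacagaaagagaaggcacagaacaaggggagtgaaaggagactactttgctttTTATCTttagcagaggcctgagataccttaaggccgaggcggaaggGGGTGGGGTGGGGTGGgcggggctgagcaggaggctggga
Hba-a1: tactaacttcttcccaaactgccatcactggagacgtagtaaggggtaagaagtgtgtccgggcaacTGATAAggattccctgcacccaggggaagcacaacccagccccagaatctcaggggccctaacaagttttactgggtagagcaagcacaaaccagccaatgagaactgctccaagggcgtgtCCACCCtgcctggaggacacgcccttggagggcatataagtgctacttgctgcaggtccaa
Hbb-bs: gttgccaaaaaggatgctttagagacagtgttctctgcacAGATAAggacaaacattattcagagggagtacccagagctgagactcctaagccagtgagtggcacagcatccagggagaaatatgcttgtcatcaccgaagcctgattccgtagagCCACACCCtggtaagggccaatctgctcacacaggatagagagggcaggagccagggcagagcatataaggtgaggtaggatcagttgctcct
Hbb-bt: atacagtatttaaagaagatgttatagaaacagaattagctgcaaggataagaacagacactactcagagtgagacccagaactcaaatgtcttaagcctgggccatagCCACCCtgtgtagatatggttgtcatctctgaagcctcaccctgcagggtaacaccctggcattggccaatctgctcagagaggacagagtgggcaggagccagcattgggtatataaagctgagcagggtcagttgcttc

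The GATA letters occurred at position -86 of Alas2, -183 of Hba-a1 and -210 of Hbb-bs, counted back from the start, and had no match in the window of Hbb-bt. The CACCC letters were present in all 4 windows, with 3 adjoining matches from position -40 in Alas2. The window of Epb42, which is not shown, held the GATA letters at -226 and no CACCC letters. Of all 32851 windows of this length, 26.5% held the GATA letters and 30.1% the CACCC letters, so these matches are common and are given as a description only. The letters TATAA stood at -27 in Hba-a1, -29 in Hbb-bs and -28 in Hbb-bt, while in Alas2 they were found only at -207 and, on the other strand, at -208, and 22.8% of all windows held them. The window of Hba-a2 matched that of Hba-a1 at 247 of 247 bases compared after a shift. The annotation of the strong globin probe sets did not separate the copies either. The 3 strong alpha globin probe sets list both Hba-a1 and Hba-a2, and the beta globin probe set lists Hbb-bt, Hbb-bs, Hbb-b2 and Hbb-b1. Their signals are therefore given for the alpha and the beta globin genes as groups.

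Each array was centred on the same level before deposit, and median signals were 36.0 to 42.1. The smooth muscle genes Acta2, Myh11, Tagln, Cnn1 and Smtn were all measured, with Acta2 signals of 9491.8 to 13536.0, and so were 5 of 5 endothelial genes. The level of no signal was taken from 27 bacterial probe sets, the highest of which lay at 10 to 22 per array and is called background. Wild-type mother 2 stood apart. Xist, expressed from the inactive X chromosome of females, had a signal of 41.2 there and of 5174.1 to 5930.9 on the others. The Y chromosome gene Eif2s3y had 7.2 there and 0.6 to 9.3 on the others, below background on every array, so the sex of that sample stays unclear. The skeletal muscle gene Tnnc2 had 525.8 against 7.9 to 23.4, and the Gapdh signal at the 3′ end over that at the 5′ end, a ratio that rises as RNA degrades, was 7.80 against 5.03 to 6.56. Member values that moved by over 1.5 times without it are given both ways.

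No member probe set passed the test between the crosses. Of 27027 probe sets tested, 0.0037% passed, which is 1 probe set that was higher with an ApoE-null mother (limma, adjusted p under 0.05). Of the 7 member probe sets, 0 passed in limma. The exact permutation test over the 35 splits of the arrays also gave 0. Its smallest p of 0.0286 cannot pass over all probe sets here, so that test could not decide the question. At an unadjusted p under 0.05 in limma, 3 of the 7 were higher with an ApoE-null mother, against 4.3% of all probe sets. These 3 are 1 probe set of Alas2 and 2 of Slc4a1, so they stand for 2 genes. The members were chosen with earlier results of these data known, so the 3 of 7 is a description only. In the permutation test, 1 of the 7 had an unadjusted p under 0.05, which was Slc4a1 1434502_x_at at 0.0286. Slc4a1 1416464_at had 0.0571 and Alas2 0.0857 in the permutation test. In a bulk sample, fewer cells of a type and less RNA per cell cannot be told apart.

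Alas2, which supplies haem for haemoglobin, had the highest signals in 3 of the 4 samples with an ApoE-null mother. Its signals were 241.6, 595.1 and 288.1 with a wild-type mother and 1118.2, 848.7, 443.3 and 1078.7 with an ApoE-null mother. ApoE-null mother 3 lay below wild-type mother 2, so the groups overlapped by that pair of arrays. The mean was 375 ± 192 (SD, n = 3) against 872 ± 309.7 (SD, n = 4). On the log2(signal + 2) scale this was 2.36-fold, with log2 fold change 1.24 (standard error 0.35, 95% interval 0.47 to 2.01, adjusted p = 0.480 in limma). It did not pass the test over all probe sets. Leaving out 1 array at a time gave 0.98 to 1.63, with 1.63 without wild-type mother 2.

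Slc4a1, the band 3 gene, was weak but did not overlap between the groups in either of its tested probe sets. Probe set 1416464_at had signals of 35.1, 41.0 and 34.8 in the wild-type mother group against 82.9, 62.2, 48.7 and 59.4 in the ApoE-null mother group. The 4 higher values were all of the ApoE-null mother group, and the lowest of them was again ApoE-null mother 3. On the log2 scale the difference was 0.72 (standard error 0.25, interval 0.18 to 1.26, adjusted p = 0.537 in limma), or 1.65-fold. Probe set 1434502_x_at, of a type open to cross-hybridisation, had signals of 13.4, 28.9 and 29.9 against 55.0, 76.5, 55.4 and 74.0. Here too the groups were apart, although wild-type mother 1 was only just above its background of 10.5. The difference was 1.42 (standard error 0.31, interval 0.73 to 2.12, adjusted p = 0.415 in limma). Both probe sets measure 1 gene and are not independent, and 4.01% of all probe sets tested were higher without overlap. The third Slc4a1 probe set, 1431743_a_at, had signals of 0.4 to 3.2, below background on every array.

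**Figure D1:**
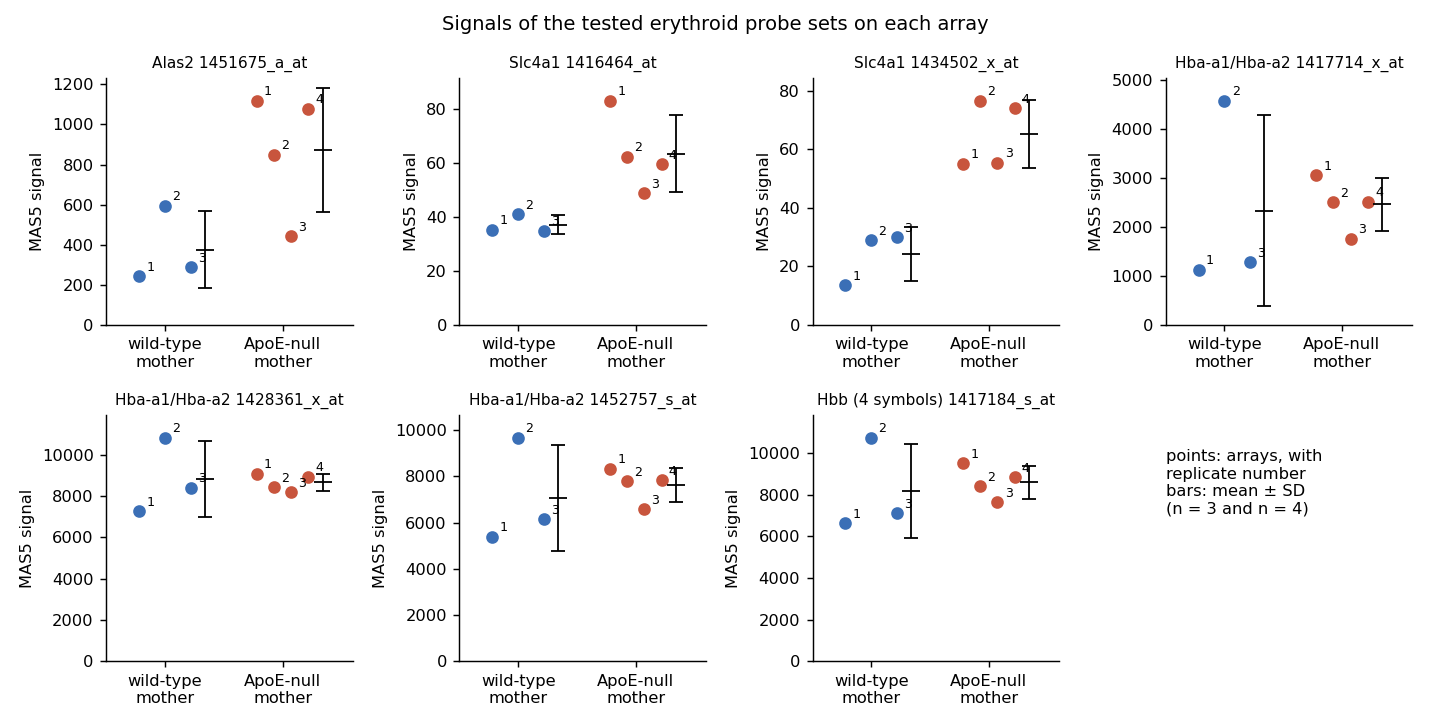
MAS5 signal (vertical axes, linear, from 0) of the 7 tested erythroid probe sets on each array, by group; points are arrays with their replicate number, and bars show mean and SD (n = 3 and n = 4). The Slc4a1 groups do not overlap, while wild-type mother 2 has the highest signal of all arrays in the 4 globin panels.

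The alpha globin genes were strongly expressed on every array and did not separate the groups. Probe set 1417714_x_at, which had the widest range of the 3 strong ones, gave 1127.4, 4578.4 and 1278.6 with a wild-type mother and 3059.4, 2499.6, 1760.4 and 2515.6 with an ApoE-null mother. The highest value and both lowest values were thus from the wild-type mother group. The mean was 2328 ± 1950.3 (SD, n = 3) against 2459 ± 533 (SD, n = 4), and the log2 difference 0.36 (standard error 0.40, interval -0.51 to 1.24, adjusted p = 0.830 in limma). Without wild-type mother 2 it was 1.01 with an interval of 0.57 to 1.44 and no overlap (limma, unadjusted p = 0.000401, adjusted p = 0.184). Without wild-type mother 1 it was -0.0045.

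The other alpha globin probe sets covered a narrower range. Signals of 1452757_s_at were 5381.7, 9674.0 and 6137.4 against 8324.5, 7777.7, 6580.9 and 7838.8, and those of 1428361_x_at were 7261.1, 10832.9 and 8398.9 against 9077.1, 8416.7, 8197.2 and 8937.2. The highest signal was 4.06 times the lowest for 1417714_x_at, 1.80 times for 1452757_s_at and 1.49 times for 1428361_x_at. The probe sets list the same genes, so the size of any alpha globin difference depended on the probe set read. The range was narrower where the mean signal was higher, at 2403 for 1417714_x_at, 7388 for 1452757_s_at and 8732 for 1428361_x_at. Whether the strongest probe sets were near the upper limit of the array was not tested, so their small differences do not show that globin RNA was unchanged. Log2 fold changes were 0.15 (interval -0.25 to 0.55) and -0.0100 (interval -0.31 to 0.29), and 0.40 (interval 0.15 to 0.66) and 0.15 without wild-type mother 2. Without wild-type mother 1 they were -0.019 and -0.14. The probe set 1453574_at, which lists Hba-a1 alone, had signals of 1.0 to 15 and lay below background on every array. Probe set 1427219_at, which lists Hba-a2 alone, had signals of 9.2 to 27.5 and was too weak to be tested.

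The beta globin genes followed the alpha globin genes closely. Probe set 1417184_s_at gave 6639.1, 10742.1 and 7103.2 with a wild-type mother and 9509.4, 8404.0, 7635.8 and 8835.2 with an ApoE-null mother. The mean was 8161 ± 2247 (SD, n = 3) against 8596 ± 785 (SD, n = 4), and the log2 difference 0.10 (standard error 0.16, adjusted p = 0.886 in limma). It was 0.32 (interval 0.085 to 0.55) without wild-type mother 2 (limma, adjusted p = 0.437) and -0.028 without wild-type mother 1. Wild-type mother 1 and wild-type mother 3 were the lowest arrays, and wild-type mother 2 the highest.

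The order of the arrays was shared by some of these probe sets. From low to high, 1417714_x_at, 1452757_s_at and 1417184_s_at all gave wild-type mother 1, wild-type mother 3, ApoE-null mother 3, ApoE-null mother 2, ApoE-null mother 4, ApoE-null mother 1 and wild-type mother 2. Alas2 gave the same order apart from wild-type mother 2, which came between ApoE-null mother 3 and ApoE-null mother 2. The alpha globin probe set 1428361_x_at and both Slc4a1 probe sets gave other orders. Across the 7 arrays the beta globin probe set correlated with 1417714_x_at at r = 0.993 and with Alas2 at r = 0.748 (Pearson, log2 scale). For 1428361_x_at with Alas2 it was 0.523. With beta globin, Slc4a1 had r = 0.515 (1416464_at) and 0.414 (1434502_x_at). With Alas2 these 2 probe sets had r = 0.905 and 0.817. These are descriptions over 7 arrays that share their scaling. Wild-type mother 2 was the array where they parted, with the highest globin signals but an Slc4a1 signal of 41.0, below all 4 samples with an ApoE-null mother.

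**Figure D2:**
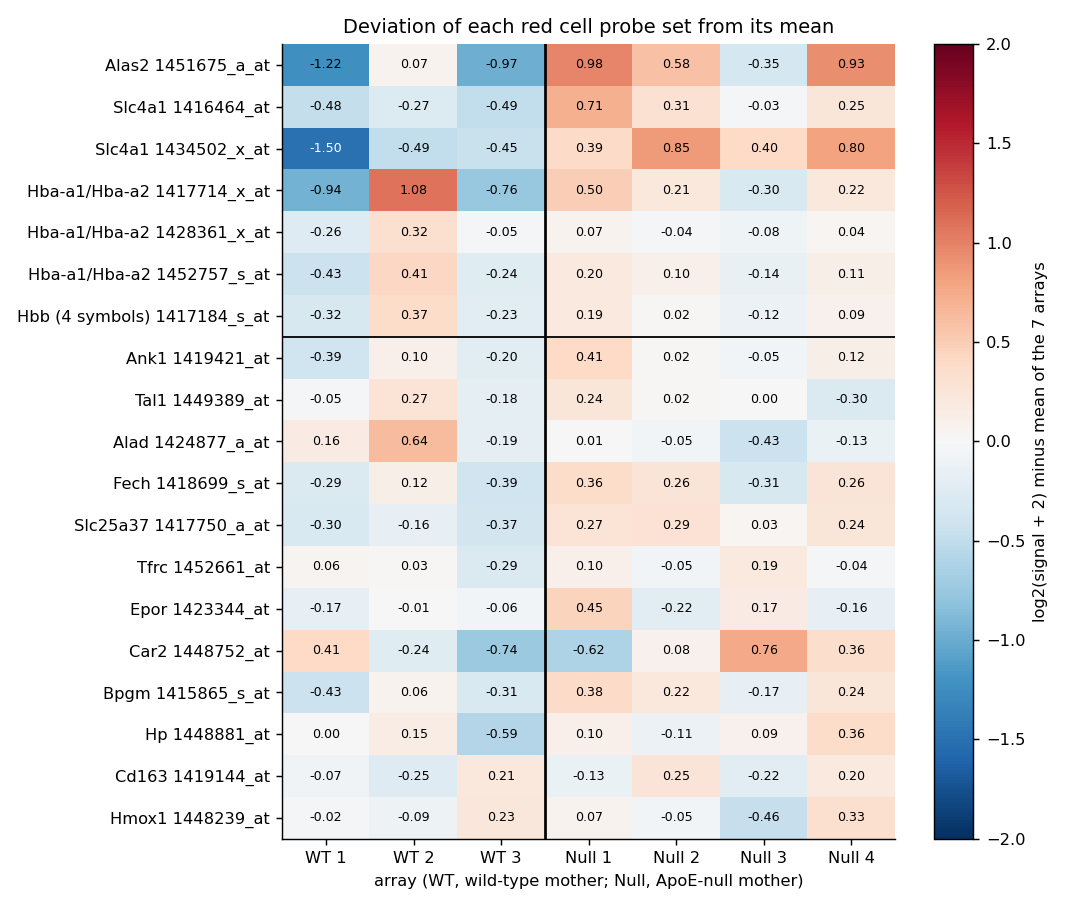
Deviation of log2(signal + 2) from its mean over the 7 arrays, for the 7 tested member probe sets (above the line) and the measured genes of the red cell lists that were chosen by name (below it), by array. Members and lists were chosen with earlier results of these data known. In the globin rows wild-type mother 2 is the highest of all arrays, and wild-type mother 1 and wild-type mother 3 are below the mean in every row of the members but not in every row below the line.

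The range of the globin signals was narrower after another scaling. The 99th percentile of all signals was 5152 on wild-type mother 2 and 4080 to 4793 on the other arrays. After quantile normalization, which gives every array the same distribution, the highest signal was 1.25 times the lowest for beta globin, where it had been 1.62 times as deposited. For the alpha globin probe sets 1452757_s_at and 1428361_x_at the ratio became 1.33 and 1.07, and for 1417714_x_at it was 3.57, down from 4.06. Beta globin, 1452757_s_at and 1428361_x_at lay above the 99th percentile of all signals on every array. At such ranks the method itself narrows the range, so the narrowing does not show where the range came from. The beta globin signal of wild-type mother 2 was then 8766, inside the 8296 to 8994 of the ApoE-null mother group and above the 7656 and 7198 of the other samples with a wild-type mother. Log2 fold changes were 0.15 for beta globin and 0.40, 0.23 and 0.018 for 1417714_x_at, 1452757_s_at and 1428361_x_at, the last of which changed its sign (limma, adjusted p = 0.564 to 0.95 over the 4 probe sets). Alas2, at 1.26, and the Slc4a1 probe sets, at 0.71 and 1.37, moved little under this scaling.

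**Figure D3:**
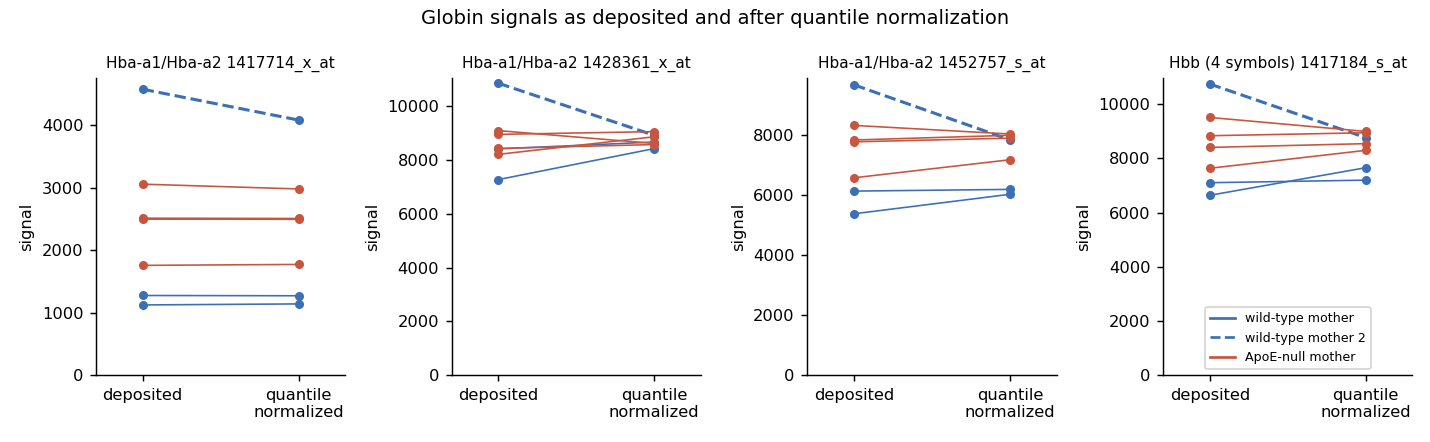
Signal (vertical axes, linear, from 0) of the 4 strong globin probe sets on each array as deposited and after quantile normalization; lines join the values of an array, blue for a wild-type mother (dashed for wild-type mother 2) and red for an ApoE-null mother. The beta globin signal of wild-type mother 2 goes from 10742.1 to 8766, while its 1417714_x_at signal stays the highest of all arrays.

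**Figure D4:**
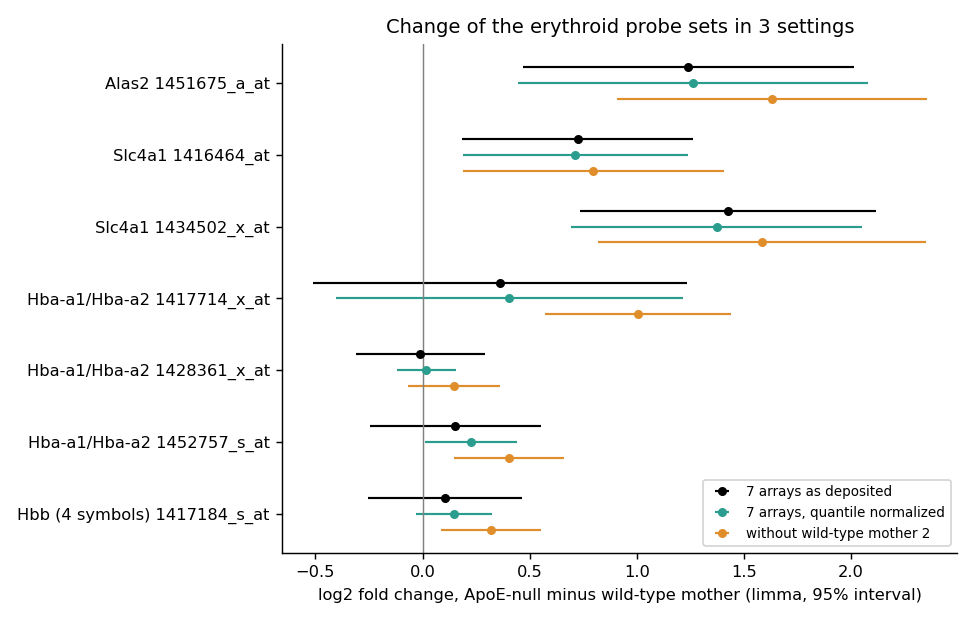
Log2 fold change (ApoE-null minus wild-type mother) of the 7 tested member probe sets with 95% intervals from limma, with 7 arrays as deposited, with 7 arrays after quantile normalization, and without wild-type mother 2. Intervals of Alas2 and both Slc4a1 probe sets lie above 0 in all 3 settings, those of 1417714_x_at and beta globin only without wild-type mother 2, and that of 1452757_s_at in both settings other than the deposited one; no probe set passed after adjustment over all probe sets.

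Epb42 was not well above background in either group. Its probe sets had signals of 1.2 to 11.5 and 1.3 to 7.5, and only the 11.5 of 1417337_at on ApoE-null mother 4 exceeded the highest bacterial probe set of its array (10.6). No fold is given for this gene.

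The genes with the pattern most like Alas2 and the globins were read from all tested probe sets with 1 symbol. For Alas2 they were Bpgm (r = 0.989), Med14 (0.986), Hebp2 (0.975), Lamtor1 (0.972) and Stx3 (0.966), by Pearson r over 7 arrays on the log2 scale, and 9 probe sets exceeded 0.95. Bpgm, which makes the red cell metabolite that lowers the oxygen affinity of haemoglobin, had signals of 562.0, 789.7 and 610.6 against 984.0, 878.2, 673.9 and 892.8. As with Alas2, only wild-type mother 2 and ApoE-null mother 3 overlapped, and the log2 fold change was 0.39 (limma, adjusted p = 0.601).

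For the alpha globin probe set with the highest signals (1428361_x_at) the nearest genes were Fth1 (r = 0.987), Cox6a1 (0.985), Mgp (0.985), Nudt18 (0.983) and Rps28 (0.981). Mgp encodes a matrix protein of the vessel wall and Rps28 a protein of the ribosome. For beta globin they were Ndufv3 (0.983), Gdi2 (0.981), Atp5h (0.978), Usp3 (0.976) and Tomm7 (0.974). All 10 of these genes had their highest signal on wild-type mother 2, and 45 and 32 probe sets exceeded 0.95 for the alpha and the beta globin probe set.

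Other genes of the red cell lists did not pass the test. Of 88 entries in 7 lists, 55 were measured and 0 passed in limma, while 9 were higher and 1 lower at an unadjusted p under 0.05 (4.3% and 3.96% of all probe sets). The median log2 fold change was 0.020 over the 55, beside -0.0041 over all probe sets. The 55 include genes of other cells, such as the macrophage receptor gene Cd163 and the neuronal globin gene Ngb. Gata1, Klf1, Rhag and Hemgn were too weak to be tested, so this median is not one of red cell genes alone. Groups did not overlap for 4 genes that were higher and 2 that were lower, where 4.01% of all probe sets were apart in each direction. The lists too were chosen with earlier results of these data known, so these counts are a description only.

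Among membrane and skeleton genes, 10 of 18 were measured, with a median log2 fold change of 0.0063. Ank1, which anchors band 3 to spectrin, had signals of 104.4 to 148.3 in the wild-type mother group and 132.8 to 183.1 in the other, and its log2 fold change was 0.29 (limma, adjusted p = 0.712). Rhag, the Rh-associated glycoprotein, had signals of 1.4 to 17.4 and exceeded background on 2 arrays, both of an ApoE-null mother.

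Among transcription factors of red cell development, Gata1 and Klf1, which drive erythroid genes, had signals of 8.7 to 31.8 and 10.3 to 23.6 and were too weak to be tested. Tal1, which is also a gene of endothelial cells, had 201.6 to 299.5 and a log2 fold change of -0.022. Lmo2, a partner of Tal1 in blood and endothelial cells, was the strongest of the list and was singled out after its values were seen. Its signals were 710.2 to 930.5 against 1034.5 to 1296.1, without overlap, and its log2 fold change was 0.48 (limma, adjusted p = 0.508). The list had 5 of 10 genes measured and a median of -0.022. Hemgn, a nuclear protein of erythroblasts, was below background on every array, with signals of 1.9 to 10.1.

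Genes of haem synthesis and mitochondrial iron were measured for 11 of 12 entries, with a median of 0.029. Slc25a37, the mitoferrin that brings iron into mitochondria of erythroid cells, had signals of 164.5, 181.2 and 157.2 with a wild-type mother and 245.3, 248.9, 208.2 and 241.3 with an ApoE-null mother. Its groups were apart, and its log2 difference was 0.49 (standard error 0.15, adjusted p = 0.523 in limma). Fech, the last enzyme of haem synthesis, overlapped at 675.3 to 963.1 against 713.5 to 1139.5, with a value of 0.33. Alad, an early enzyme of the pathway, was at -0.35, but leaving out wild-type mother 2 gave -0.13 and leaving out wild-type mother 3 gave -0.55.

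Iron uptake and erythropoietin genes had a median of 0.020 over 9 of 10 entries. Tfrc, the transferrin receptor, and Epor, the erythropoietin receptor, had log2 fold changes of 0.12 and 0.14, with groups that overlapped, and leaving out 1 array took them as low as 0.0054 (without wild-type mother 3) and 0.012 (without ApoE-null mother 1). Hfe, the haemochromatosis gene, singled out after its values were seen, was lower without overlap at 568.7 to 676.3 against 432.1 to 548.8 (log2 fold change -0.32, adjusted p = 0.610 in limma). In the list of red cell enzymes and maturation, 10 of 16 were measured with a median of 0.12, and 5 had positive and 5 negative values. The carbonic anhydrase gene Car2 was at 0.34, but leaving out wild-type mother 3 gave 0.060 and leaving out wild-type mother 1 gave 0.63. Of the embryonic globins, Hbb-bh1 was below background on every array, Hbb-y exceeded it only on ApoE-null mother 1, with a signal of 21.7, and Hba-x had signals of 8.0 to 16.2.

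A beta globin probe set that lists Hbb-b2 alone (1427866_x_at) covered a wider range than the strong one. It is of a type open to cross-hybridisation, as are the alpha globin probe sets 1417714_x_at and 1428361_x_at. The Hbb-b2 probe set was singled out after its values were seen. Its signals were 12.1, 147.0 and 17.5 with a wild-type mother and 160.9, 194.2, 71.3 and 79.3 with an ApoE-null mother. Wild-type mother 1 and wild-type mother 3 were close to background, and wild-type mother 2 was within the range of the other group. The log2 difference was 1.77 (standard error 0.68, adjusted p = 0.566 in limma), which became 2.82 without wild-type mother 2 (adjusted p = 0.123) and 1.12 when wild-type mother 1 was left out.

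Genes that take up haemoglobin and haem had a median of -0.016 over 7 of 10 entries. Hp, which encodes the haemoglobin-binding protein haptoglobin, had a log2 fold change of 0.25 (0.032 without wild-type mother 3, 0.40 if wild-type mother 2 was left out), its macrophage receptor gene Cd163 of 0.06, and the haem-degrading enzyme gene Hmox1 of -0.07. Groups overlapped for all 3.

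Markers of other blood cells were read beside the red cell genes. Summed signals of 6 measured platelet genes of 9 were 1836.8 to 3186.0 in the wild-type mother group and 2344.1 to 3209.6 in the other, and Pf4 and Itga2b had log2 fold changes of 0.19 and -0.05. Most of each sum was Pf4, at 1602.7 to 2055.6. Gp9, Gp1bb and Treml1 were highest on wild-type mother 2, at 81.5, 174.4 and 90.3. Ppbp, Itga2b and Pf4 were highest on ApoE-null mother 2, at 733.4, 180.4 and 2055.6. Of 10 neutrophil genes 2 were measured, with sums of 22.8 to 108.6 and 52.0 to 99.2, and wild-type mother 2 was the highest. S100a8 was at 0.84 with signals of 5.1 to 76.3 against 21.9 to 64.5, but at 0.062 when wild-type mother 1 was left out and 1.79 when it was wild-type mother 2. S100a9 had 2.0 to 43.4 against 10.8 to 33.5. Of 6 B cell genes 2 were measured, with sums of 123.4 to 171.3 and 132.3 to 210.3, and Cd79a was below background on every array.

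T cell and thymocyte genes were read in the same way. Of 10 listed genes 6 were measured, with sums of 133.7 to 209.0 in the wild-type mother group and 422.6 to 648.1 in the other. With all arrays 0 passed in limma. Without wild-type mother 1 it was 3, where 16 of all 27027 probe sets passed as higher and 2 as lower. The sums of the groups did not overlap. Cd3d, Cd3g, Rag1 and Dntt had means of 9.1 to 19.8 in the wild-type mother group and reached the mean signal of 23.6 needed for testing through the other group, so their separation was partly set by that filter. Cd8a overlapped, with a log2 fold change of -0.15. Cd3d was below background on all 3 arrays of the wild-type mother group, and Rag1 had signals of 0.8 to 48.3 against 133.8 to 174.4. Ucp1, the uncoupling protein gene of brown fat, had signals of 1447.5, 2297.1 and 420.1 in the wild-type mother group against 3146.6, 4614.3, 5059.5 and 3886.9 in the other, also without overlap. The part of T cells, thymus or brown fat in the Alas2 and Slc4a1 differences was not tested. Summed signals of 5 smooth muscle genes, at 23307.9 to 30653.5 and 24148.6 to 29842.7, and of 5 endothelial genes, at 2791.1 to 3722.9 and 2999.5 to 4274.1, overlapped. Acta2 had a log2 fold change of 0.03 and Pecam1, an endothelial adhesion gene, of 0.09.

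**Figure D5:**
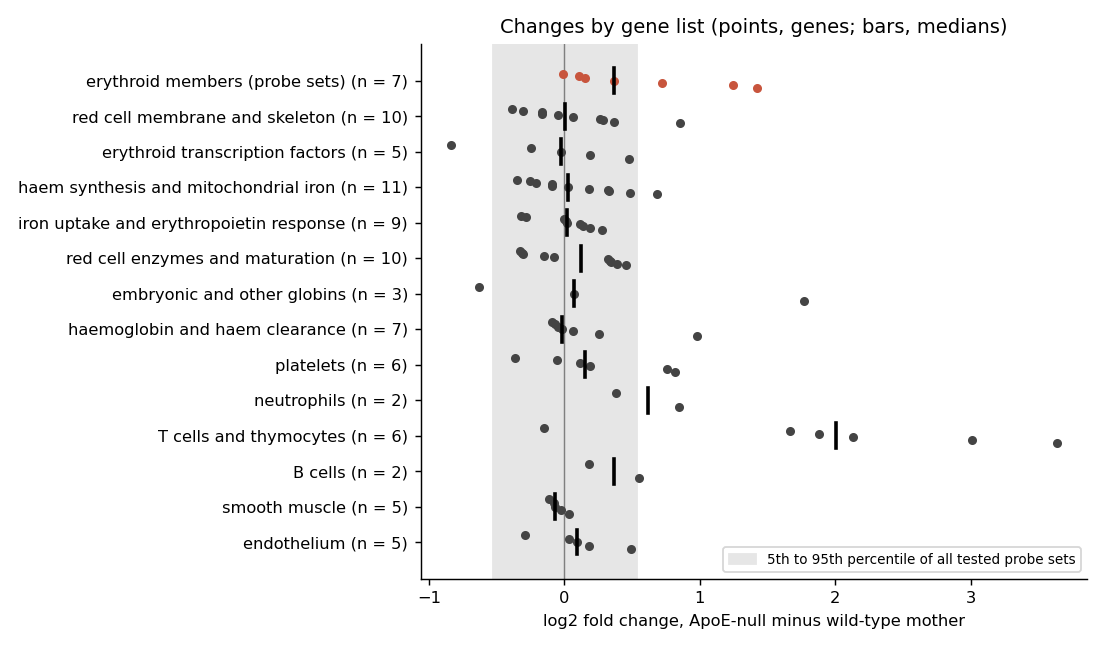
Log2 fold change (ApoE-null minus wild-type mother, horizontal axis) of the 7 tested member probe sets and of each measured gene in the fixed lists; points are probe sets or genes, black bars medians, and the grey band spans the 5th to 95th percentile of all tested probe sets (-0.53 to 0.54). Alas2 and both Slc4a1 probe sets lie beyond the band on the higher side and the 4 globin probe sets within it.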

How the data were processed

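RNA of 7 carotid artery samples was amplified in 2 cycles with an oligo-dT primer and hybridised to Affymetrix mouse expression arrays, per the labels' protocols. The authors deposited MAS5 intensity values on a linear scale, made in GCOS per the submitters' processing notes (versions not given in the sources used here). Their 2% trimmed mean was 200.0 on every array. Symbols came from the platform annotation, where 34958 probe sets had 1, 932 several and 9211 none. Members with several symbols were kept and marked.

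Values were transformed to log2(signal + 2), controls (64) were left out, and 27027 probe sets whose mean exceeded the 40th percentile (23.6) were fitted with limma 3.58.1 in R 4.3.3 (lmFit, eBayes with intensity trend, Benjamini-Hochberg over all). Fold changes on this scale understate changes of weak genes. A listed gene is read from its tested probe set with 1 symbol and the highest mean. The fit was tested on simulated data. Array number limits the precision. Named genes were all members, a set of list genes chosen by name, and the 5 genes nearest in pattern. Members and lists were chosen with earlier results of these data known. Alternatives were another pseudocount, filters, scalings, no trend, a permutation test and leaving out each array.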

Additional observations from a re-analysis of the deposited data

Results flagged for a closer look

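Within the ApoE-null mother group, probe set 1431743_a_at of Slc4a1 had a signal of 1.6 on ApoE-null mother 3, apart from the 0.6 to 0.7 of the other arrays of that group. The gap was 0.90 of the range of the group, above Dixon's critical value for 4 samples. All of these signals lay below background. It was the 1 of 30 probe sets compared this way that stood out, and chance alone sets apart about 1 in 20 groups.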

How the results depend on the processing

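Over 14 alternatives, 0 member probe sets passed the test (adjusted p = 0.184 to 1). Alas2 and both tested Slc4a1 probe sets were positive in all of them. The globin values near 0 changed sign: 1428361_x_at was 0.018 after quantile normalization, and over left-out arrays it was -0.14 to 0.15, 1417714_x_at -0.0045 to 1.01, 1452757_s_at -0.019 to 0.40 and beta globin -0.028 to 0.32, the lowest without wild-type mother 1 and the highest without wild-type mother 2 each time. Among named list genes, Tal1 was 0.0035 after quantile normalization. Over left-out arrays Tal1 was -0.12 to 0.11, Hmox1 -0.19 to 0.077, Cd163 -0.045 to 0.19, Itga2b -0.25 to 0.21, Acta2 -0.085 to 0.17 and Pecam1 -0.31 to 0.43. Of all probe sets, 1 was called higher and 0 lower. The count of higher calls was 0 without an intensity trend, 2 after quantile normalization and 0 by the exact permutation test, whose smallest p of 0.0286 cannot pass over all probe sets here. Over left-out arrays it was 0 to 16 higher and 0 to 2 lower, most without wild-type mother 1. The cause was not tested. No paired analysis was possible because the groups share no replicate numbers in the labels.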

Other observations

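A few genes of iron and red cell biology outside the named set had groups that were apart or a small unadjusted p, and were chosen after their values were seen. Slc40a1, the iron exporter ferroportin, had signals of 187.4, 136.6 and 102.3 with a wild-type mother and 188.5, 290.3, 379.9 and 271.7 with an ApoE-null mother, which is 0.98 on the log2 scale (standard error 0.26, adjusted p = 0.459 in limma). Its highest value was on ApoE-null mother 3, the array that was lowest of its group for Alas2. Sptb, the beta spectrin of the red cell skeleton, was at 0.85 with signals of 20.9 to 41.7 against 38.8 to 66.9. Ngb, which encodes the neuronal globin, was the 1 red cell list gene lower at an unadjusted p under 0.05 in limma, at 48.8 to 91.1 against 33.4 to 49.8, and its log2 fold change of -0.63 was -0.39 without wild-type mother 1. None of the 3 passed the test.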
